A study of Drosophila melanogaster with 20 samples.

Results

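The genes wrapper and zyd mark cortex glia, the glial cells of the fly brain that enclose the cell bodies of neurons. They were followed on single-channel arrays of the adult Drosophila melanogaster brain. The members were the probe sets whose only annotated gene symbol is wrapper or zyd. There were 2 of them among 18769 probe sets tested, so 2 of the 11982 gene symbols with a probe set of their own, 1 for wrapper (1622923_at, gene ID 37555) and 1 for zyd (1623552_s_at, gene ID 3354992). By the array maker's naming, the _s_at ending marks probes that can match transcripts of more than 1 gene, although the annotation names zyd alone.

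Cortex glia form a honeycomb of fine membranes around neuronal somata, and in flies they take part in ion balance, nutrition and survival of the neurons they enclose. The wrapper gene encodes an immunoglobulin-domain adhesion protein anchored in the glial membrane. It is known from the embryonic midline glia, where it binds Nrx-IV on neurons as the glia ensheathe axons, and it is widely used to label cortex glia. The gene zyd (zydeco) encodes an exchanger of sodium for calcium and potassium. In cortex glia zyd shapes small calcium oscillations, and flies without it are prone to seizures.

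The study compared 4 groups with 5 arrays each. Surface glia were fluorescent cells from flies of the 9.137-GFP line, all glia from the REPO-GFP line and neurons from the ELAV-GFP line, each isolated by flow sorting. The whole-brain group was wild type, strain Canton S, and its label names no sort. A sorted sample used 10 to 15 brains and a whole-brain sample 5, with males and females together, and the flies were adults of no stated age. Tissue for sorting was dissociated with collagenase at 37 °C. Surface glia were shaken for 5 min at 500 rpm, all glia for 20 min at that speed, and neurons for 20 min at 1000 rpm. Line, dissociation and sorting therefore cannot be told apart from cell type. Each sort collected cells by the fluorescent label of its line, and the labels name no line made to label cortex glia alone. What share of the labelled cells of each type was recovered was not tested.

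The values are log2 levels per probe set as normalized by the authors, so a difference of 1 is a 2-fold change in the signal. As a guide to background, the 95th percentile of 44 negative control probe sets was taken on each array. It was 4.67 to 6.05 in surface glia, 4.70 to 6.08 in all glia, 4.12 to 4.63 in neurons and 3.64 to 3.83 in whole brain, so background was highest in the glial sorts. Across all probe sets, arrays correlated with the others of their group at 0.781 to 0.896 in surface glia, 0.763 to 0.937 in all glia, 0.966 to 0.978 in neurons and 0.993 to 0.997 in whole brain. Surface glia 4 and all glia 4 stood farthest from the rest of their groups (mean correlation 0.785 and 0.772), and results that depend on them are given with and without them.

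The sorts were first set against cell type markers. The 8 measured pan-glial genes averaged 10.10 to 10.69 over the surface-glia arrays, 9.07 to 9.74 in all glia, 7.19 to 7.93 in neurons and 10.12 to 10.37 in whole brain. The 8 neuronal genes averaged 10.57 to 12.09 in surface glia, 11.77 to 12.41 in all glia, 12.39 to 12.59 in neurons and 12.40 to 12.54 in whole brain, so neuronal transcripts were high in each glial sort. The 8 surface glia genes averaged 10.69 to 11.52 in surface glia, 8.39 to 10.50 in all glia, 4.49 to 5.12 in neurons and 8.57 to 9.07 in whole brain. The 4 measured astrocyte markers differed in the sort labelled all glia. The astrocyte gene alrm exceeded its array's control percentile on 1 of 5 all-glia arrays, and Gat, which encodes a GABA transporter, on 0 of 5. Both were above it on 5 of 5 whole-brain arrays. The other two were higher, Eaat2, a transporter of excitatory amino acids, at a mean of 10.47 and above the controls on 5 of 5 all-glia arrays, and e, the ebony gene of amine conjugation, at 5.69 and above them on 4 of 5. Against whole brain, Eaat2 was not called in all glia (−0.58), while e was lower (−3.98). In neurons both had higher means than in all glia, 10.79 for Eaat2 and 6.88 for e, above the controls on 5 of 5 arrays. Neither was called in all glia against neurons (−0.32 and −1.19), so these genes did not set the all-glia sort apart from the neuronal sort. Transcripts of tissues next to the brain moved with the sorts too. The 7 fat body genes averaged 7.46 to 8.49 in surface glia, 6.47 to 7.28 in all glia, 5.25 to 5.66 in neurons and 5.65 to 6.33 in whole brain, and the 6 hemocyte genes 6.54 to 7.27, 5.99 to 6.91, 5.21 to 5.50 and 5.12 to 5.75 in the same order of groups. Their part in the results was not tested. The label "all glia" is used here as the name of the REPO-GFP sort, in which alrm was within the controls on all arrays but all glia 5 and Gat on all 5.

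The adhesion gene wrapper was highest in whole brain and lowest in neurons, with the 2 glial sorts between them. On replicates 1 to 5 of surface glia its log2 level was 4.21, 4.91, 8.94, 5.64 and 5.39. On those of all glia it was 6.18, 4.29, 6.79, 6.69 and 7.88. Neurons gave 4.13, 3.56, 4.05, 4.39 and 5.14, and whole brains 9.18, 9.16, 9.46, 9.31 and 9.60. Every whole-brain array lay above every sorted array, and the 3 sorted groups overlapped one another. Surface glia 3, at 8.94, lay 3.30 above the next surface-glia array and close to the whole-brain range. The group mean was 5.82 ± 1.83 (SD, n = 5) in surface glia, 6.37 ± 1.32 in all glia, 4.25 ± 0.58 in neurons and 9.34 ± 0.19 in whole brain. Without surface glia 3 the surface-glia mean was 5.04 ± 0.63 (n = 4). The level exceeded its array's control percentile on 2 of 5 surface-glia arrays, 4 of 5 all-glia arrays, 2 of 5 neuron arrays and 5 of 5 whole-brain arrays. The neuron mean lay under the mean percentile of 4.39, so the size of a difference that involves neurons is uncertain.

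Surface glia 3 also stood apart in muscle genes. Its 3 measured muscle markers averaged 10.34, with 3 of 3 above the controls, against 4.52 to 5.85 on the other 4 surface-glia arrays and 3.61 to 4.16 in whole brain. Its surface glia genes (11.52) and fat body genes (8.49) were the highest of the 5 arrays and its hemocyte genes (6.54) the lowest. Its pan-glial genes (10.59), astrocyte genes (5.91), ensheathing glia genes (7.68) and neuronal genes (11.18) lay within the range of the other 4. The exchanger gene zyd was at 6.66 on this array, the same as on surface glia 5. The part of the muscle transcripts in the high wrapper value was not tested, and results for wrapper in surface glia are given with and without this array.

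The exchanger gene zyd gave the same order of group means, with less spread in surface glia. On replicates 1 to 5 of surface glia its log2 level was 6.86, 5.32, 6.66, 6.13 and 6.66. On those of all glia it was 7.46, 6.79, 8.68, 6.53 and 9.38. Neurons gave 3.92, 3.60, 3.95, 4.60 and 4.17, and whole brains 9.91, 10.27, 10.34, 10.57 and 10.36. Each surface-glia and all-glia array lay above every neuron array and below every whole-brain array, while the 2 glial sorts overlapped. The group mean was 6.33 ± 0.62 (SD, n = 5) in surface glia, 7.77 ± 1.23 in all glia, 4.05 ± 0.37 in neurons and 10.29 ± 0.24 in whole brain. The level exceeded the control percentile on 5 of 5 arrays of surface glia, all glia and whole brain, and on 1 of 5 neuron arrays. All glia 5 had the highest level of both zyd and wrapper in its group. It was also the 1 all-glia array with alrm above the controls, at 9.70, against 3.84 to 4.82 on the other 4.

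**Figure D1:**
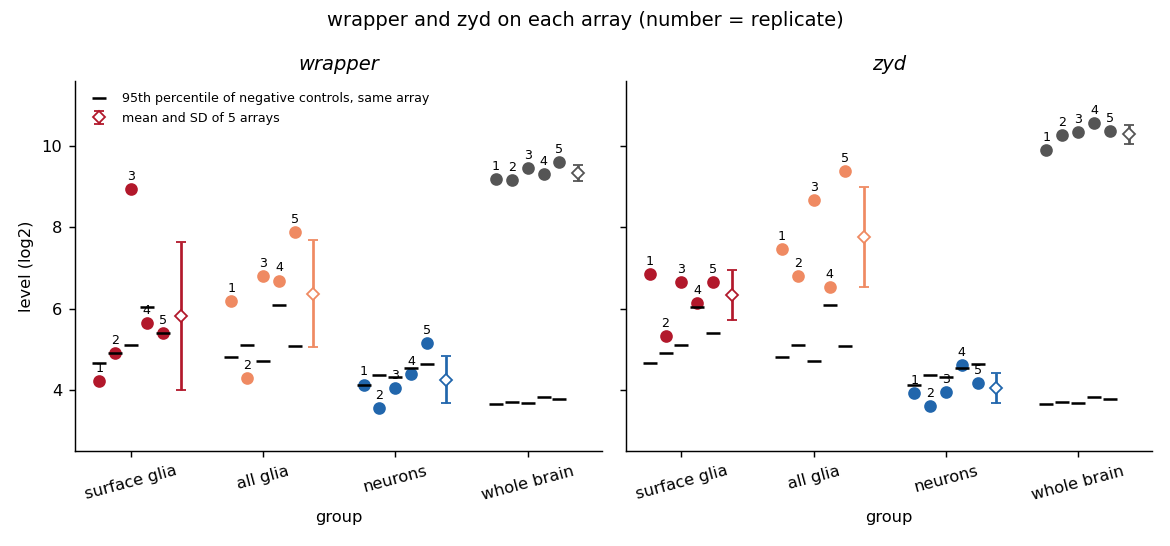
Log2 level of wrapper and zyd (y axis) on each array, by group (x axis), with the replicate number over each point. Diamonds with bars are the mean and SD of 5 arrays, and black dashes the 95th percentile of the negative controls on the same array. Whole-brain arrays sit at 9.16 to 9.60 for wrapper and 9.91 to 10.57 for zyd, above every sorted array, and surface glia 3 stands alone at 8.94 for wrapper.

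Neurons were compared with whole brain to see how far sorted neurons were depleted of the 2 glial genes. Both fell. The log2 level of wrapper differed by −5.09 in neurons (SE 0.68, limma adjusted p = 1.70e-05) and that of zyd by −6.24 (SE 0.43, limma adjusted p = 2.49e-09). A call required an adjusted p below 0.05 together with a 2-fold change or more. By that rule 9.85% of all probe sets were called lower and 3.79% higher in neurons, and 17.3% had neuron arrays wholly below the whole-brain arrays. With neuron arrays raised to their control percentile where they lay under it, the differences were −4.84 and −5.88. In bulk samples, fewer cells of a type and less RNA per cell cannot be told apart.

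All glia were compared with neurons to see whether the REPO-GFP sort held more of the cortex glia transcripts than the neuronal sort. The level of zyd was higher in all glia by 3.72 (SE 0.43, limma adjusted p = 1.21e-05), a 13.2-fold difference, and the arrays did not overlap. Since zyd was above the controls on 1 of 5 neuron arrays, that size is uncertain, and it was 3.36 with arrays under their control percentile raised to it. The level of wrapper was higher by 2.11 (SE 0.68, limma adjusted p = 0.0468), a 4.32-fold difference, with all glia 2 (4.29) inside the neuron range of 3.56 to 5.14. Of all probe sets 3.18% were called higher and 4.35% lower in all glia, and 13.5% had all-glia arrays wholly above the neuron arrays. The call of wrapper was lost without any 1 of all glia 3, 4 or 5 or of neurons 1, 2, 3 or 4, which gave adjusted p values of 0.0587 to 0.0989 in limma, and without both all glia 4 and surface glia 4 (2.03, limma adjusted p = 0.0773). It was also lost with each array centred on its median (1.96, limma adjusted p = 0.0596) or after a further quantile normalization (2.05, limma adjusted p = 0.106).

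Surface glia were compared with neurons in the same way. The level of zyd was higher in surface glia by 2.28 (SE 0.43, limma adjusted p = 0.000811), a 4.85-fold difference with no overlap of arrays, or by 1.92 with arrays raised to their control percentile. The difference of wrapper, 1.56 (SE 0.68, limma adjusted p = 0.0628), was not called, and the arrays overlapped. Of all probe sets 10.5% were called higher and 15.0% lower in surface glia, and 21.1% had surface-glia arrays wholly above the neuron arrays. Without surface glia 3 the wrapper difference was 0.78 (limma adjusted p = 0.192). Without surface glia 1 it was 1.97 (limma adjusted p = 0.0240) and without surface glia 2 it was 1.79 (limma adjusted p = 0.0492), which would be calls. Since wrapper was above the controls on 2 of 5 arrays in each of these groups, its sizes here are uncertain. With all arrays, and those under their control percentile raised to it, the wrapper difference was 1.5.

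Both glial sorts were compared with whole brain to see whether sorting on a glial line enriched the cortex glia genes over the organ. They did not rise in either sort. In all glia wrapper differed by −2.98 (SE 0.68, limma adjusted p = 0.00132) and zyd by −2.52 (SE 0.43, limma adjusted p = 0.000147). In surface glia wrapper differed by −3.52 (SE 0.68, limma adjusted p = 0.000247) and zyd by −3.96 (SE 0.43, limma adjusted p = 1.21e-06). The arrays overlapped in none of these 4 cases. In all glia 14.8% of all probe sets were called lower and 24.7% higher, and 15.8% had arrays wholly below whole brain. In surface glia 19.4% were called lower and 31.6% higher, and 17.2% were wholly below. Some general glial genes were lower in all glia too. Of the 8 measured pan-glial genes, 3 were called lower, 1 higher and 4 not at all in all glia. In surface glia 1 was called lower and 1 higher. Among them repo differed by −2.27 in all glia and by 0.55, not called, in surface glia, while loco was higher by 1.66 and 2.76. Whether wrapper and zyd fell further than the pan-glial genes was not tested. Without surface glia 3 the fall of wrapper in surface glia was −4.30 (limma adjusted p = 4.10e-06), but wrapper was then above the controls on surface glia 2 alone, by 0.01, so this size is uncertain too. With all arrays, and those under their control percentile raised to it, it was −3.35. The same whole-brain arrays serve the 3 comparisons, so the falls in the 3 sorts are not independent of one another.

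The barrier sort was set against the broader glial sort to see whether the 2 cortex glia genes differed between surface glia and all glia. Neither was called. The difference of wrapper was −0.55 (SE 0.68, limma adjusted p = 0.776) and that of zyd −1.44 (SE 0.43, limma adjusted p = 0.0589), with overlapping arrays. Of all probe sets 2.29% were called lower and 2.46% higher in surface glia, and 0.948% were wholly below all glia. Without all glia 4 and surface glia 4 the difference of zyd was −1.70 (limma adjusted p = 0.0264), which would be a call. It would also be one without all glia 2 (−1.69), without all glia 4 (−1.75) or without surface glia 1 (−1.58). For wrapper, leaving out surface glia 3 gave −1.33 (limma adjusted p = 0.159).

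**Figure D2:**
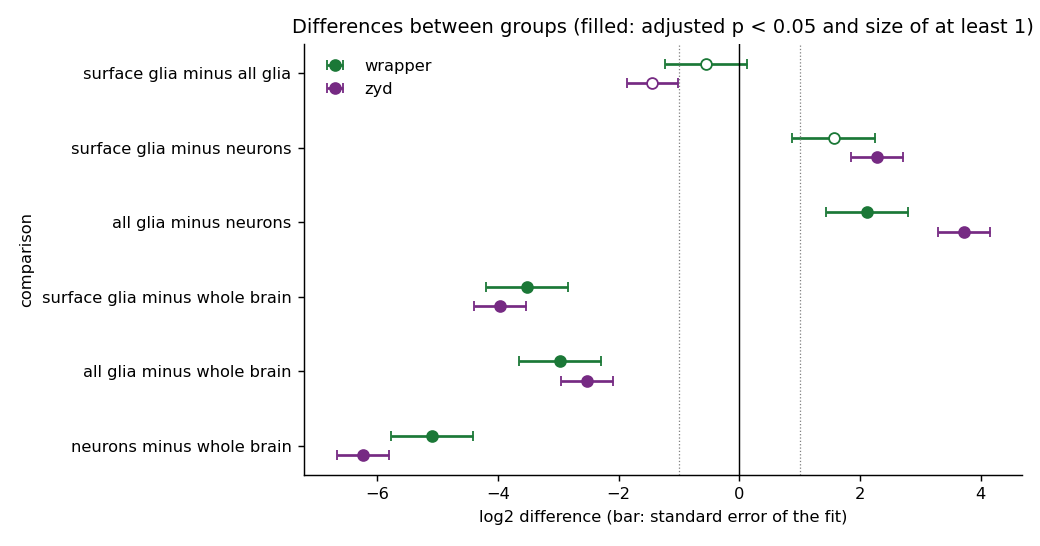
Log2 difference of wrapper and zyd (x axis) in each of the 6 comparisons (y axis), with the standard error of the fit as a bar. Filled points have an adjusted p under 0.05 and a size of at least 1. All 6 differences from whole brain are filled and negative, from −2.52 to −6.24, and both differences of surface glia from all glia are open.

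Taking each gene alone, the levels were ordered whole brain, all glia, surface glia and neurons from high to low. For zyd the difference between the neighbours all glia and surface glia was not called with all arrays, though it was under some alternatives. The differences between the other neighbours were called. For wrapper, all glia and surface glia were not told apart, nor were surface glia and neurons.

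An exact permutation test of each difference, two-sided over the 252 regroupings of 10 arrays, was made because the groups differed in spread. It treats the arrays of both groups as exchangeable, so unequal spread limits it as well. This exact test gave p = 0.00794, the smallest the design allows, for both genes against whole brain in the 3 sorts and for zyd in both glial sorts against neurons (p = 0.0119 adjusted over the 12 differences of the members). For wrapper in all glia against neurons it gave an exact p = 0.0238, adjusted to 0.0317. The 3 uncalled differences had adjusted exact p values of 0.0667 for wrapper in surface glia against neurons, 0.0693 for zyd in surface glia against all glia and 0.587 for wrapper in surface glia against all glia.

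Whether the 2 genes shifted by the same amount was tested on the difference of wrapper minus zyd within each array, which compares shifts and not levels. That difference averaged −0.51 ± 1.80 (SD, n = 5) in surface glia, −1.40 ± 0.99 in all glia, 0.21 ± 0.46 in neurons and −0.95 ± 0.23 in whole brain. Between neurons and whole brain it differed by 1.15 (exact permutation p = 0.00794, adjusted over the 6 pairs of groups 0.0476). In neurons wrapper exceeded its array's control percentile on 2 of 5 arrays and zyd on 1 of 5. By another set of 50 control probe sets each did so on 4 of 5. With neuron levels this near background, the value of 1.15 does not show which gene fell further. Whether it follows the gap between the 2 probe sets in whole brain was not tested. Between all glia and neurons the difference of −1.61 did not pass (exact permutation p = 0.0317, adjusted 0.0952). Without all glia 4 it did, at −2.0 (adjusted exact permutation p = 0.0159), and so did the difference between all glia and whole brain, at −0.84 (adjusted exact permutation p = 0.0159) against −0.45 with all arrays (adjusted exact permutation p = 0.505). Between surface glia and neurons it was −0.71 (adjusted exact permutation p = 0.505), and −1.41 without surface glia 3 (adjusted exact permutation p = 0.0238).

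**Figure D3:**
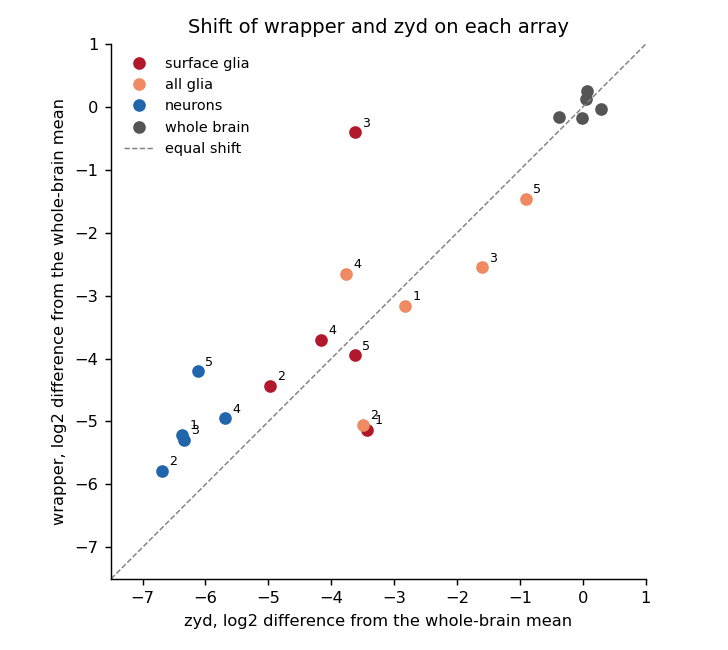
Shift of wrapper (y axis) against the shift of zyd (x axis) on each array, each as a log2 difference from that gene's whole-brain mean. Numbers are replicates and the dashed line marks equal shifts. Neurons lie above the line, surface glia 3 lies farthest above it, and 4 of the 5 all-glia arrays lie below it, all glia 4 being above.

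The adhesion genes listed with wrapper were called in both directions in surface glia. The list held Nrx-IV and other adhesion genes, most with immunoglobulin domains, and 10 of its 12 genes were measured. Against whole brain, 2 were called higher and 3 lower in surface glia, 0 and 1 in all glia, and 0 and 1 in neurons. The list medians were −0.52, −0.43 and 0.11, beside 0.39, 0.31 and 0.27 over all probe sets. Of all probe sets 31.6% were called higher and 19.4% lower in surface glia, 24.7% and 14.8% in all glia, and 3.79% and 9.85% in neurons. One of the genes called higher in surface glia, Ama, was above the controls on 2 of 5 surface-glia arrays and 0 of 5 whole-brain arrays. Nrg was not called against whole brain on the probe set counted. On its other probe sets it was called both ways, at 1.13 and −1.85 in all glia and at 1.11 and −2.69 in neurons. Nrx-IV, the partner of wrapper in midline glia, averaged 7.27 ± 1.37 (SD, n = 5) in surface glia, 8.13 ± 2.15 in all glia, 8.90 ± 0.27 in neurons and 8.22 ± 0.13 in whole brain, and was called in none of the 6 comparisons. The immunoglobulin gene klg, known for its part in photoreceptor development, fell in surface glia, with differences of −2.74 against neurons and −2.68 against whole brain. ImpL2, which encodes a secreted immunoglobulin protein that binds insulin-like peptides, was higher in surface glia by 5.76 against neurons, by 2.47 against all glia and by 3.20 against whole brain.

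The calcium list held 14 measured genes of exchangers, pumps and channels beside zyd. Against whole brain, 3 were called higher and 8 lower in surface glia, 2 and 2 in all glia, and 0 and 2 in neurons, with list medians of −1.24, −0.49 and 0.10. Over all probe sets the medians were 0.39, 0.31 and 0.27, with 31.6% called higher and 19.4% lower in surface glia, 24.7% and 14.8% in all glia, and 3.79% and 9.85% in neurons. In all glia the 2 and 2 of 14 genes lay at or under those shares. The call of trpl as higher in both glial sorts came from levels within the controls on every array. SERCA, counted as lower in surface glia against whole brain (−1.64), was called higher there on another of its 3 probe sets (1.25). SPoCk, counted as not called against whole brain in all glia and neurons, was called lower in them on its other probe set (−1.33 and −1.9). Nckx30C, which encodes another exchanger of the same class as zyd, fell against whole brain in each sort, with differences of −3.01 in surface glia, −2.70 in all glia and −2.70 in neurons. Nckx30C was not called between sorts, with −0.31 for surface glia against neurons and 0.00 for all glia against neurons. Its levels ran from 8.47 to 9.23 in surface glia, 8.13 to 9.60 in all glia, 9.07 to 9.38 in neurons and 11.81 to 11.99 in whole brain. CG1090 fell in surface glia, with a difference of −1.58 against neurons, which lost its call without surface glia 3 (−1.52, limma adjusted p = 0.0561). Calx, the sodium-calcium exchanger gene, fell in surface glia, with a difference of −5.14 against neurons, but was not called in all glia against neurons (−0.44). It was above the controls on 2 of 5 surface-glia arrays, so the size of its fall is uncertain. A test of zyd against these genes' shifts was not made.

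The calcineurin list holds calcium sensors and the calcium-dependent phosphatase, which acts downstream of zyd in fly cortex glia. Of its 9 genes 6 were measured. The calmodulin gene Cam and the kinase genes CaMKII and CaMKI had no probe set of their own, so the counts do not cover them. Against whole brain, 1 was called higher and 3 lower in surface glia, 1 and 2 in all glia, and 0 and 1 in neurons, with list medians of −0.96, −0.90 and −0.07 beside the same 0.39, 0.31 and 0.27 over all probe sets. With 6 genes, these counts were read against 31.6% higher and 19.4% lower in surface glia, 24.7% and 14.8% in all glia, and 3.79% and 9.85% in neurons. The higher one was CanA1, within the controls on every array of the 4 groups. CanB2, a regulatory subunit whose loss in cortex glia suppresses the seizures of zyd mutants, fell against whole brain in each sort, with differences of −1.64 in surface glia, −1.70 in all glia and −1.69 in neurons. It was called between no 2 sorts. The catalytic subunit gene CanA-14F differed by −3.24 in surface glia against whole brain on 1 probe set and by 1.44 on its other, and both were called.

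The potassium list covers channels, pump subunits and cotransporters that act on potassium around neuronal somata, with 10 of 12 genes measured. In surface glia against neurons 4 were called higher and 0 lower, and in all glia against neurons 2 and 0, with list medians of 0.91 and 0.35 beside 0.36 and 0.27 over all probe sets. Of all probe sets 10.5% were called higher and 15.0% lower in surface glia, and 3.18% and 4.35% in all glia. Against whole brain, 2 were called higher and 3 lower in surface glia, 0 and 3 in all glia, and 0 and 4 in neurons, with medians of −0.53, −0.81 and −0.51. The medians over all probe sets were 0.39, 0.31 and 0.27 there. The shares called higher and lower were 31.6% and 19.4% in surface glia, 24.7% and 14.8% in all glia, and 3.79% and 9.85% in neurons. The inward rectifier gene Irk2 was higher than in neurons by 3.66 in surface glia and 2.99 in all glia, and fell against whole brain, with differences of −1.38 in surface glia, −2.05 in all glia and −5.03 in neurons. The pump beta subunit gene nrv2 was higher than in neurons by 1.79 in surface glia, and it was also called in all glia. Irk3, of the same family, fell against whole brain in each sort, with differences of −3.67 in surface glia and −3.85 in all glia. Irk3 was above the controls on 2 of 5 surface-glia, 1 of 5 all-glia and 2 of 5 neuron arrays, so these sizes are uncertain. The potassium leak channel gene sand, linked in flies to the seizures of zyd mutants, was low in all groups, at means of 5.43, 4.83, 4.16 and 4.04. It was above its control percentile on 3 of 5 surface-glia arrays, 1 of 5 all-glia arrays, 0 of 5 neuron arrays and 5 of 5 whole-brain arrays. Its calls as higher in surface glia, by 1.27 against neurons and 1.39 against whole brain, are in the counts above. With signal this near background, those sizes are uncertain.

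The list of other genes tied to cortex glia had 12 of 15 genes measured. In surface glia against neurons 5 were called higher and 2 lower, and in all glia against neurons 5 and 0, with list medians of 0.35 and 0.51. Over all probe sets the medians were 0.36 and 0.27, with 10.5% called higher and 15.0% lower in surface glia and 3.18% and 4.35% in all glia. Against whole brain, 2 were higher and 2 lower in surface glia, 0 and 3 in all glia, and 0 and 6 in neurons. The shares of all probe sets called higher and lower there were 31.6% and 19.4%, 24.7% and 14.8%, and 3.79% and 9.85%. Without surface glia 3, 0 were called higher and 1 lower in surface glia against whole brain. The cytochrome P450 gene Cyp4g15, reported in cortex glia, averaged 10.13 ± 0.47 (SD, n = 5) in surface glia, 8.34 ± 0.61 in all glia, 4.72 ± 0.41 in neurons and 9.80 ± 0.18 in whole brain. It was higher in surface glia than in all glia by 1.79 and was not called against whole brain (0.33), where wrapper and zyd both fell. The fibroblast growth factor receptor gene htl was higher in surface glia by 4.32 against neurons, 2.29 against all glia and 1.56 against whole brain. Without surface glia 3 its difference from all glia was 2.11 (limma adjusted p = 0.0592) and from whole brain 1.38 (limma adjusted p = 0.0557), so both calls were lost, while that against neurons, where htl was above the controls on 1 of 5 arrays, was kept (4.13). The lipid carrier genes GLaz and fabp exceeded neurons by 3.28 and 2.60 in surface glia, and by 2.04 and 2.07 in all glia. NLaz, a lipocalin gene, was lower than in whole brain in each sort, with −2.61 in surface glia, −2.37 in all glia and −1.83 in neurons. Its level was above the controls on 0 of 5 surface-glia arrays. Calls of this list against whole brain therefore went both ways in surface glia alone, and the higher calls there were lost without surface glia 3. In all glia and neurons every call was lower.

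**Figure D4:**
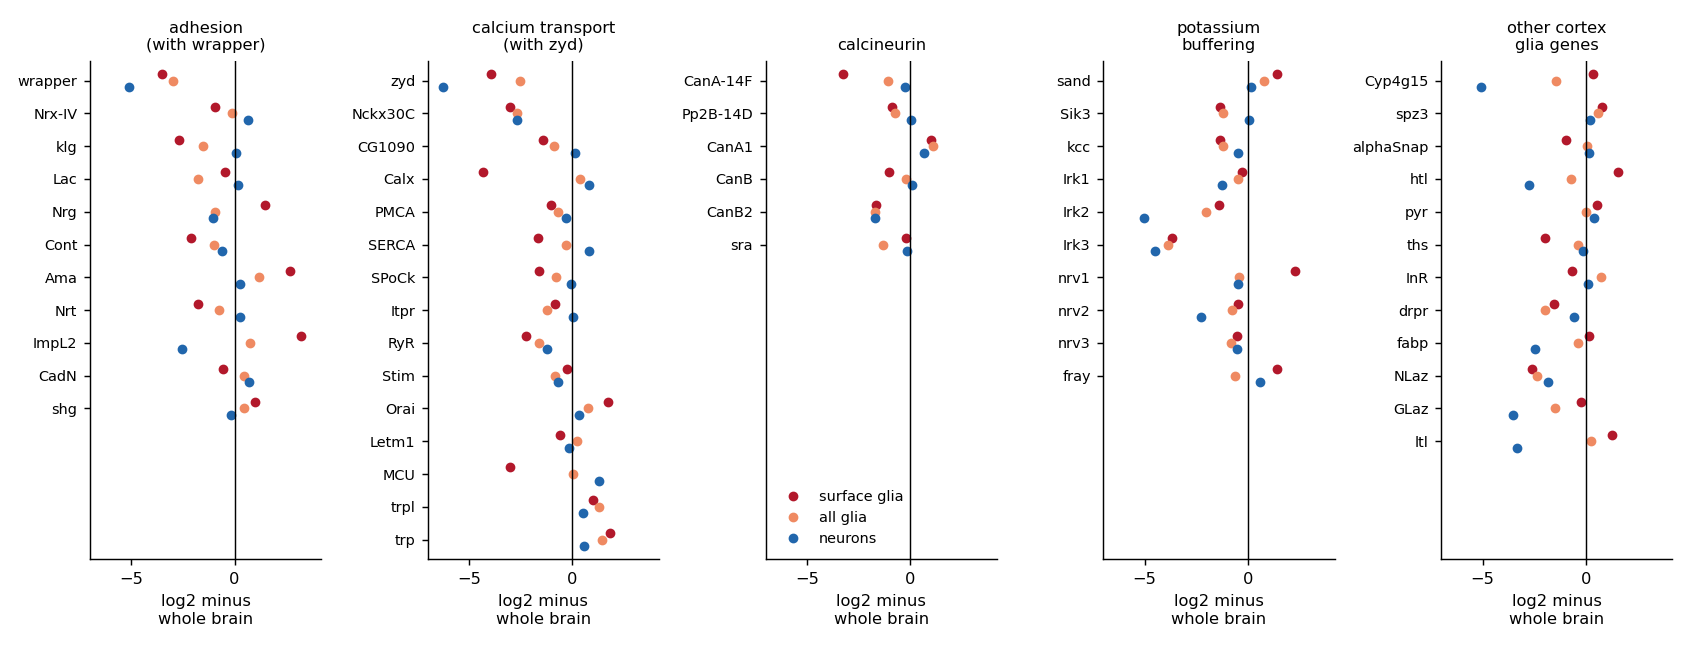
Log2 difference from whole brain (x axis) of each measured gene of the 5 lists (y axis, 1 panel a list), in surface glia, all glia and neurons. The genes wrapper and zyd head the panels of adhesion and calcium transport. In the panel of other cortex glia genes, Cyp4g15 lies at 0.33 in surface glia, against −3.52 for wrapper and −3.96 for zyd.

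The genes with the most similar profiles were found by the root-mean-square difference of log2 values over the 20 arrays, after each probe set was centred on its own mean. Genes were taken by gene ID, since 1 symbol stands for 2 IDs, which left 11982 others for each member. For wrapper the nearest were Cyp12a4 (0.88), CG3270 (0.88), CG8369 (0.97), bumpel (0.97), Acsx3 (0.98) and CG7607 (1.00). Cyp12a4 belongs to the cytochrome P450 family, bumpel is related to the sodium solute symporters and Acsx3 is named as an acyl-CoA synthetase. For zyd they were CG7888 (0.67), CG8369 (0.76), CG31706 (0.80), Acsx3 (0.84), wtrw (0.89), which encodes a TRP channel, and CG1552 (0.96). CG8369 and Acsx3 stood in both sets. The gene zyd was the number 17 gene from wrapper and wrapper the number 14 gene from zyd, at a difference of 1.12. CG8369 had group means of 10.50 in surface glia, 11.30 in all glia, 8.03 in neurons and 13.98 in whole brain, so it followed the same order of groups as the 2 members. Cyp12a4 and CG3270 did not, with means of 7.07 and 7.16 in surface glia against 5.72 and 6.87 in all glia. The median over all other genes was 2.32 for wrapper and 2.55 for zyd.

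**Figure D5:**
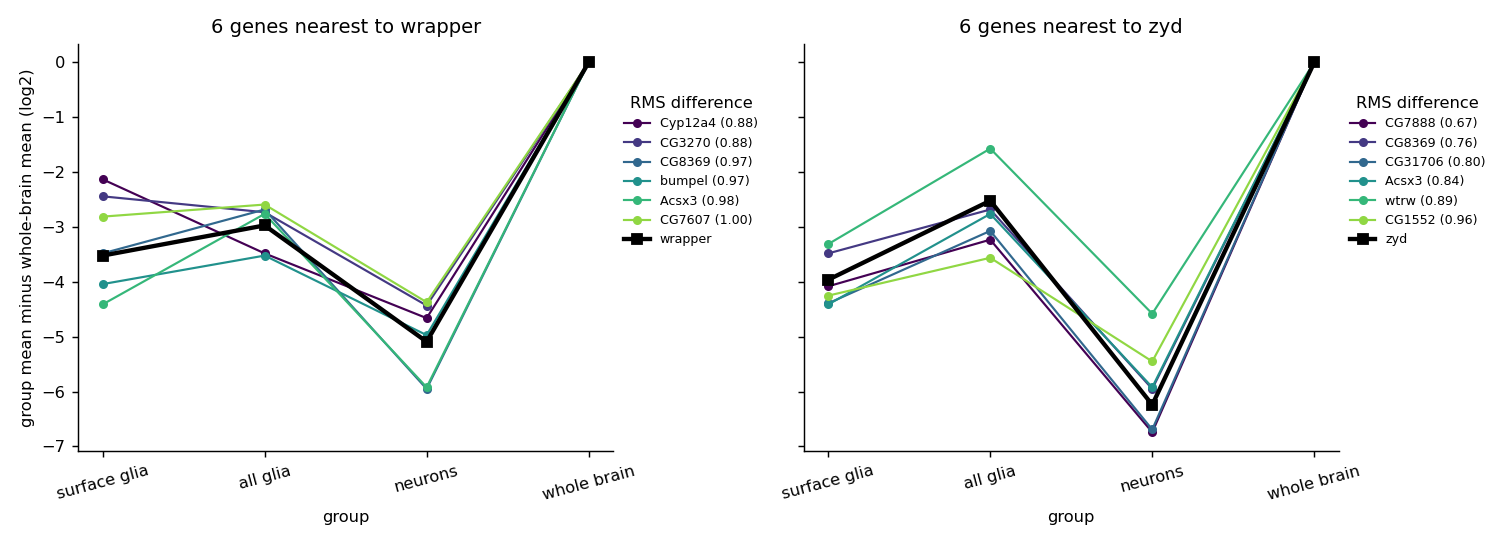
Group mean minus whole-brain mean (log2, y axis) by group (x axis) for wrapper and its 6 nearest genes on the left and zyd and its 6 nearest genes on the right. Legends give the root-mean-square difference over 20 arrays. Each profile is lowest in neurons, and CG7888, the nearest gene to zyd, differs from it by 0.67.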

How the data were processed

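The deposited values are log2 levels on 20 arrays, normalized and summarised by the authors. Per the submitters' processing notes the tools were RMA, affy and limma, without versions or settings. Amplification before labelling is stated in the labels' protocols. Of 18952 probe sets 183 controls were left out. The probe annotation gave 1 symbol for 13647 probe sets. Negative controls were the 44 bacterial and tag control probe sets. This role was read from their names, and another 50 control probe sets gave lower percentiles. The fit was limma (version 3.58.1, R 4.3.3) on all 20 arrays with a mean for each group, and p-values were adjusted by Benjamini-Hochberg over 18769 probe sets in each comparison. In simulated data of surface glia against whole brain with 18769 probe sets, 98 of 100 changes of 4 and 76 of 100 changes of 2 (log2) were called. Of the unchanged probe sets 13 were called. The simulated noise had the same spread in every group, unlike the data, so these rates may not carry over. The series text places replicates in different bottles and days. The members and gene lists were chosen with earlier results of these data known. Genes named were the members, any gene of the lists, and the 6 genes nearest to each member, and a gene with several probe sets was represented by the one with the highest mean. The number of arrays limits the precision. Alternatives were centring, a further quantile normalization, array weights, a filter on dim probe sets, fits of the 2 groups alone, left-out arrays, a replicate block, no minimum difference and, added after seeing the data, the exact permutation test the other control set and the list counts without surface glia 3. The planned use of another probe set could not be run, since wrapper and zyd have 1 each.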

Additional observations from a re-analysis of the deposited data

Results flagged for a closer look

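Among 40 sets of 5 arrays (10 genes in 4 groups), 6 held an array whose gap to the nearest other, divided by the range of the set, exceeded 0.71, and chance gives about 1 in 20. Neither wrapper nor zyd had one, and wrapper on surface glia 3 came closest at 0.698. The astrocyte gene alrm was high on surface glia 5 (6.92, others 4.11 to 4.91), on all glia 5 (9.70, others 3.84 to 4.82) and on neurons 4 (6.05, others 4.01 to 4.27). All glia 4 was low for Nrx-IV (4.41, others 8.29 to 9.78), for CG1090 (6.31, others 9.51 to 10.32) and for Cyp4g15 (7.26, others 8.50 to 8.71).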

How the results depend on the processing

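The falls of wrapper and zyd against whole brain and the rise of zyd over neurons kept their direction and their call under each alternative run. For wrapper in all glia against neurons the difference of 2.11 lost its call with centred arrays (1.96), after quantile normalization (2.05) and without both arrays that stand apart (2.03), and ran from 1.73 to 2.63 without single arrays. For zyd in surface glia against all glia the difference of −1.44 gained a call with dim probe sets left out (−1.44, limma adjusted p = 0.0475) and without both arrays that stand apart (−1.70), and ran from −1.75 to −1.04 without single arrays. For wrapper in surface glia against neurons it ran from 0.78 to 1.97. The replicate block gave the same differences and added the calls of wrapper in surface glia against neurons (1.56, limma adjusted p = 0.0386) and of zyd in surface glia against all glia (−1.44, limma adjusted p = 0.0457). The numbers share no stated batch, and deviations of same-numbered arrays correlated above 0.1 in 2 of 30 pairs. For the difference in shift between neurons and whole brain the paired exact permutation test, whose smallest p is 0.0625, gave 1.15 (adjusted p = 0.375), so this pairing could not pass. Without single arrays the difference in shift ran from −1.41 to −0.18 for surface glia against neurons, −2.0 to −1.33 for all glia against neurons, −0.26 to 0.98 for surface glia against whole brain, where the value without surface glia 3 (−0.26) had the opposite sign to the 0.44 of all arrays, and −0.84 to −0.18 for all glia against whole brain. Without both arrays that stand apart it was −2.0 and −0.84 for all glia against neurons and whole brain, and passed. After quantile normalization the adhesion list had 2 genes higher and 0 lower in surface glia against whole brain, the calcium list 2 and 5 and the potassium list 1 and 1, and 3 other cortex glia genes were higher in all glia against neurons. By the other 50 controls, wrapper was above the percentile on 4 of 5 surface-glia and 4 of 5 neuron arrays and zyd on 4 of 5 neuron arrays. The cause of each change was not tested. Signal near background limits the sizes in neurons.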
